A study of Mus musculus with 9 samples.

Results

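The interferon-induced transmembrane (IFITM) genes were followed across FDCPmix cells in which Gata2 or Pu.1 had been knocked down. The members were Ifitm1, Ifitm2, Ifitm3 and Ifitm6, chosen by name, with every array probe whose accession belongs to one of them. These were 4 of the 16535 genes that could be named on the array, and they were carried by 5 of its 41174 probes, because Ifitm2 had 2 probes. All 5 probes read well above background on all 9 arrays, none was saturated, and all 5 were among the 36585 probes tested.

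FDCPmix is an established mouse line of multipotent blood progenitors that depends on IL-3 for self-renewal. In self-renewal conditions the cells received a lentivirus that carried an shRNA directed at Gata2 (Gata2 KD), an shRNA directed at Pu.1 (Pu.1 KD), or no shRNA (empty vector, EV), with 3 samples per group, and all groups were sorted for viable GFP+ cells 5 days later. The shRNA vector was a Lentilox plasmid, and for Gata2 the study describes 1 gene-specific shRNA. Total RNA (150 ng per sample) was hybridized in a single color to whole mouse genome arrays. Nothing in the labels says that the 3 samples of a group were separate cultures beyond being transduced in triplicate, so the spread measured here may be partly technical.

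IFITM proteins are small membrane proteins of the plasma membrane and of endosomes. IFITM1, IFITM2 and IFITM3 hinder the entry of enveloped viruses by acting on the fusion of viral and cellular membranes, and palmitoylation anchors them in the membrane. Their genes lie side by side in one cluster and are best known as targets of type I and type II interferon, although stem and progenitor cells express several of them without infection. Ifitm6 is a rodent gene of the same cluster that is expressed in blood cells, and its function is less studied.

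The arrays came from 3 slides, each with 1 array of every group, so slide and group could be separated. Between 80.4% and 89.6% of spots were well above background. Gata2 was lower in Gata2 KD than in EV at both of its probes, with log2 changes of -1.61 (limma, adjusted p 0.00414) and -1.80 (adjusted p 0.000616). Spi1, the gene of Pu.1, was lower in Pu.1 KD, with a change of -1.73 (adjusted p 0.00178) and higher in Gata2 KD by 1.39 (adjusted p 0.0012). Markers of maturing myeloid cells moved with the knockdowns. Of 11 neutrophil markers tested, 11 were called higher in Gata2 KD and 9 called lower in Pu.1 KD, against 4.21% and 2.16% of all named genes, and their summed linear level, in units of each array's 75th percentile, was 241 to 270 in EV, 1127 to 1342 in Gata2 KD and 106 to 125 in Pu.1 KD. Most of this sum came from the bright markers Ctsg, Mpo and S100a9, with log2 means of 7.03, 5.92 and 5.67 in EV.

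The sequence at the start of the genes is shown for the members with matches to interferon-related motifs. Stretches came from the RefSeq windows of GRCm38.p6, which run from 250 bases before to 50 bases after the start and were found for 4 of 4 members, with 1 window each. Capitals mark the matches, which were searched on both strands, and the motifs were chosen after the sequences had been read. The Ifitm6 stretch is shown because that gene changed most, and it lies before the start on the minus strand at chr7:141016893-141017142.
Ifitm6: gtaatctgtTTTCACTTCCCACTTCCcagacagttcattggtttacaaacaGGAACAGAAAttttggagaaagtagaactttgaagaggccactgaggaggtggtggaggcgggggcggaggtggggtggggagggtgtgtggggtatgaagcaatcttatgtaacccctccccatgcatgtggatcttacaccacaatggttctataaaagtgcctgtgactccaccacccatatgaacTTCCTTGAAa
The Ifitm2 stretch ends at the base before the start, on the minus strand at chr7:140955962-140956021, and the Ifitm3 stretch opens at the start itself, on the minus strand at chr7:141010715-141010744. Both are shown because they share the 10 letters GAAAAGGAAA.
Ifitm2: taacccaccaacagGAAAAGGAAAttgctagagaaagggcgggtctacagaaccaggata
Ifitm3: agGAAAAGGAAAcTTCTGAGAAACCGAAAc

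The interferon-stimulated response element, searched as GAAANNGAAA, is the motif through which type I interferon acts. It was matched once in the Ifitm2 window, from base -46 to -37, and in the Ifitm3 window at bases 3 to 12 and 20 to 29, and it was found in 3.44% of the 32851 windows in the table. The motif GGAANNGAAA, a composite that PU.1 can bind together with IRF4 or IRF8, was matched 2 times in the Ifitm6 window, from -241 to -232 on the strand opposite to the gene and from -199 to -190, and it was found in 2.71% of all windows. The ETS motif GGAAGTG was matched 2 times in the Ifitm6 window, at -238 to -232, where it overlaps the composite, and at -231 to -225. It was found in 11% of all windows and at least 2 times in 0.983%. The interferon gamma motif TTCNNNGAA was matched once in Ifitm3, at bases 14 to 22, overlapping the second response element, and once in Ifitm6, at -10 to -2, and was found in 8.3% of windows. The motif of GATA factors, searched as the letters GATA preceded by A or T and followed by A or G, was matched once in the Ifitm3 window, at -235 to -230, and in none of the windows of Ifitm1, Ifitm2 and Ifitm6. It was found in 29.8% of all windows. The Ifitm1 window held none of the 5 motifs. A match describes letters in the window only, and no binding was measured on these arrays.

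Ifitm6 rose in Gata2 KD and fell in Pu.1 KD, and it was the member that moved most in both comparisons. A level is the log2 processed intensity minus its 75th percentile on that array. In EV the 3 arrays read -1.49, -1.66 and -1.54, from processed intensities of 210, 156 and 168. In Gata2 KD they read 3.78, 3.57 and 3.48, from intensities of 6033, 5542 and 6010. In Pu.1 KD they read -2.68, -2.92 and -2.55, from intensities of 72.3, 65.7 and 82.7. No array of one group came near those of another, with Pu.1 KD lowest, EV between and Gata2 KD highest. Over all tested probes, 7.65% had every Gata2 KD array above every EV array, 9.32% had every Pu.1 KD array below EV, and 11.8% had every Gata2 KD array above Pu.1 KD.

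The log2 rise of Ifitm6 in Gata2 KD was 5.17 with an SE of 0.15 (36.0-fold, 95% interval 28.3 to 45.8, limma, adjusted p 3.47e-06). By size of change it stood at rank 10 among the 36585 probes tested. It was seen within each slide, where the difference lay between 4.96 and 5.44. Over 22 alternative settings the rise lay between 4.66 and 5.24. The lowest of these is below the interval, which starts at a log2 of 4.82, so the interval leaves out the effect of the processing. In Pu.1 KD the change was -1.16 with an SE of 0.15 (2.23-fold lower, adjusted p 0.00805), and the differences within slides lay between -1.26 and -1.06. With normexp background correction this change was -0.71 (adjusted p 0.0115), and in a fit of the EV and Pu.1 KD arrays alone it missed the threshold (adjusted p 0.051). The knockdowns differed from each other by 6.33 with an SE of 0.15 (80.3-fold, adjusted p 6.35e-07), rank 7 by size, and by 5.38 with normexp. The arrays cannot tell a larger number of Ifitm6-expressing cells from more Ifitm6 RNA per cell.

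Ifitm3, the member best known for blocking virus entry from endosomes, was moderately higher in Gata2 KD. The EV arrays read 6.01, 5.89 and 5.95, the Gata2 KD arrays 6.66, 6.65 and 6.41, and the Pu.1 KD arrays 6.32, 6.64 and 6.38. Both knockdown groups lay above all EV arrays, as 7.65% of tested probes did in Gata2 KD and 7.93% in Pu.1 KD, and they overlapped each other. The change in Gata2 KD was 0.62 with an SE of 0.14 (1.54-fold, 95% interval 1.23 to 1.93, adjusted p 0.0449), and within slides it lay between 0.39 and 0.77. This call was close to the threshold and was lost in 14 of 22 alternative settings, among them each of the 9 that left out 1 array, where the change lay between 0.58 and 0.71 and the adjusted p between 0.0533 and 0.198. In Pu.1 KD the change of 0.50 with an SE of 0.14 did not pass the threshold (adjusted p 0.144), although it was positive on 3 of 3 slides, and it did pass with eBayes in its trend and robust settings (adjusted p 0.0309) and on the deposited log2 values (0.0343). The knockdowns differed by 0.13 (95% interval of the fold 0.869 to 1.37, adjusted p 0.909), so a larger change in one than in the other was not detected.

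No change was called for Ifitm1, a member found mainly at the cell surface. The EV arrays read 8.45, 8.52 and 8.60, the Gata2 KD arrays 8.74, 8.49 and 8.25, and the Pu.1 KD arrays 8.37, 8.68 and 8.39. The groups overlapped throughout. The changes were -0.03 in Gata2 KD (SE 0.16, 95% interval of the fold 0.755 to 1.28, adjusted p 0.991) and -0.04 in Pu.1 KD (interval 0.748 to 1.26, adjusted p 1.00). Its processed intensities ran from 153576 to 204763, below the lowest saturation value of the scanner, 778567. Whether the probe itself could still show a rise at this level was not tested.

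Ifitm2, a close relative of Ifitm3 that also restricts viruses in endosomes, was called in neither knockdown. Its brighter probe read 4.37, 4.22 and 4.11 in EV, 4.40, 4.20 and 4.11 in Gata2 KD, and 4.14, 4.58 and 4.20 in Pu.1 KD. The changes were 0.00 in Gata2 KD (SE 0.17, 95% interval of the fold 0.771 to 1.30, adjusted p 0.998) and 0.08 in Pu.1 KD (interval 0.812 to 1.37, adjusted p 0.993). The other probe gave 0.16 (adjusted p 0.887) and 0.18 (adjusted p 0.904), with intervals of 0.837 to 1.49 and 0.847 to 1.51, so neither probe was called. With 3 arrays per group, changes of Ifitm1 and Ifitm2 inside these intervals could be missed.

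**Figure D1:**
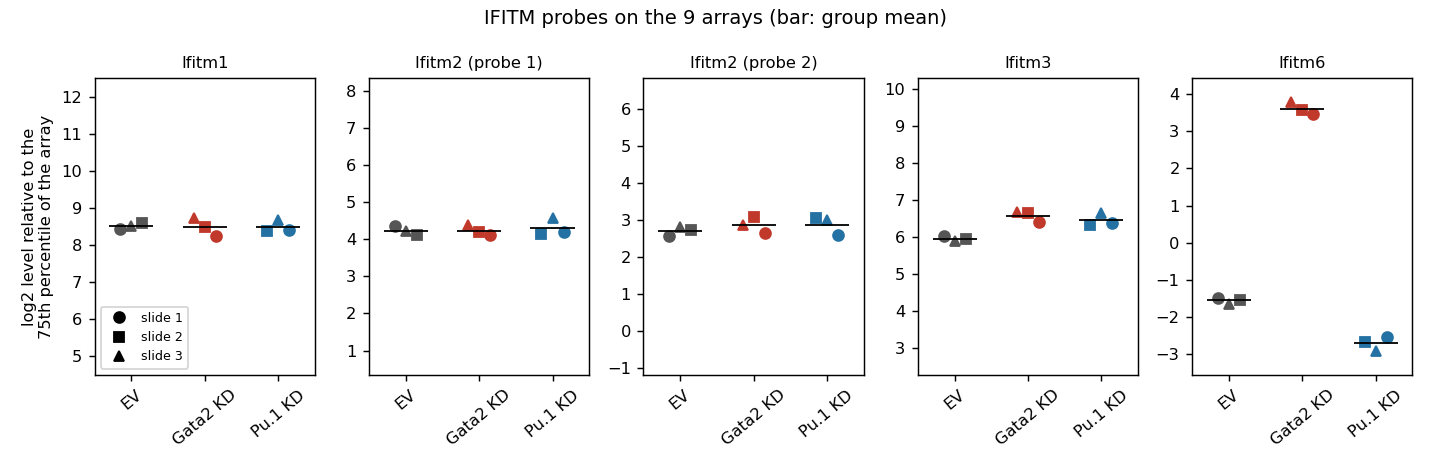
Level of each IFITM probe on the 9 arrays (vertical axis, log2 relative to the 75th percentile of the array, every panel spanning the same number of log2 units) by group, with the group mean as a bar and the slide as the symbol. Ifitm6 separates into 3 groups, from -2.92 in Pu.1 KD to 3.78 in Gata2 KD, Ifitm3 lies above EV in both knockdowns, and the other probes overlap.

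The family thus gave 2 genes called higher in Gata2 KD, Ifitm6 and Ifitm3, and 1 gene called lower in Pu.1 KD, Ifitm6. Over all named genes tested, 4.21% were called higher in Gata2 KD and 2.16% called lower in Pu.1 KD, and the median change of named genes was -0.09 and -0.04. Both comparisons use the same EV arrays. In the direct comparison 1 of 4 genes, Ifitm6, was called higher in Gata2 KD than in Pu.1 KD, against 6.77% of all genes. The probes of Ifitm1 and Ifitm2 varied little over the 9 arrays, with ranges of 0.47 to 0.51 on the log2 scale, compared with 0.77 for Ifitm3, 6.70 for Ifitm6 and a median of 0.99 over all tested probes. The spread within groups was small for every member, with pooled SDs of 0.13 to 0.21 against a median of 0.30 over all tested probes.

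**Figure D2:**
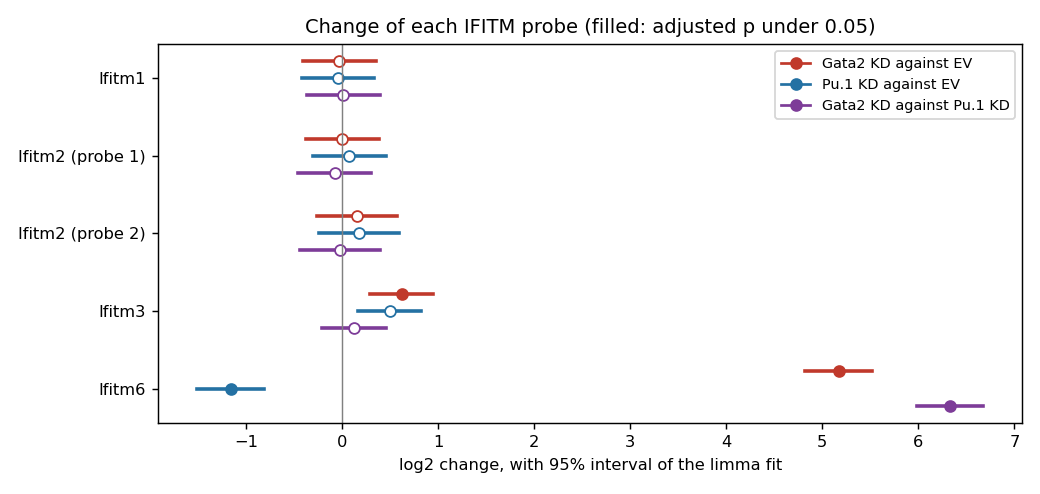
Log2 change of each IFITM probe (horizontal axis) in the 3 comparisons, with the 95% interval of the limma fit as a line and filled points where the adjusted p passed the threshold. Ifitm6 is far from 0 in all 3 comparisons (5.17, -1.16 and 6.33), Ifitm3 is called in Gata2 KD only, and all intervals of Ifitm1 and Ifitm2 cross 0.

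After the group means were removed, Ifitm1, Ifitm2 (brighter probe) and Ifitm3 deviated together over the 9 arrays. The correlation of these deviations was 0.81 between Ifitm1 and Ifitm3, 0.86 between Ifitm2 and Ifitm3 and 0.69 between Ifitm1 and Ifitm2, while each had a correlation with Ifitm6 between -0.15 and 0.08. The other probe of Ifitm2 had a correlation of 0.14 with the brighter one. The points share arrays and slides, and the values are given as a description. IFITM genes are similar in sequence, and whether a probe also takes up RNA of another member was not tested. The 36.0-fold rise of Ifitm6 was not accompanied by a called change of Ifitm1 or Ifitm2. For Ifitm1 and the brighter Ifitm2 probe that does not test such uptake, because Ifitm6 reached at most 6033 intensity units. Ifitm1 read at least 153576 and the brighter Ifitm2 probe at least 8204, so a partial uptake could go unseen there. The other Ifitm2 probe read 2898 to 3966, below the 5542 to 6033 of Ifitm6 in Gata2 KD. Its change in Gata2 KD was 0.16, with an interval of the fold of 0.837 to 1.49. The Ifitm6 probe read 65.7 to 82.7 in Pu.1 KD, where Ifitm1 read at least 153576. How far these values bound an uptake was not tested.

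Among 15476 named genes ranked by correlation of level over the 9 arrays, the profiles most like that of Ifitm6 belonged to genes of mature myeloid cells and to less studied genes. Genes picked this way share the group differences of the member on these same arrays. Their changes are therefore a description and not a further test. They were Aldh3b1, an aldehyde dehydrogenase (r = 0.999), Tmem154 (0.998), Lcn2, which encodes the neutrophil granule protein lipocalin 2 (0.998), Sh3tc1 (0.998) and Clec4b1, a C-type lectin of myeloid cells (0.997). Lcn2 rose by 4.32 in Gata2 KD (adjusted p 7.3e-06) and fell by 0.91 in Pu.1 KD (adjusted p 0.0223). Aldh3b1 rose by 3.64 (adjusted p 7.49e-06) and fell by 0.77 (adjusted p 0.0309). Tmem154, Sh3tc1 and Clec4b1 rose by 3.06, 1.95 and 3.97 in Gata2 KD (adjusted p 3.98e-05, 5.21e-05 and 2.87e-05), with changes of -0.76, -0.38 and -0.97 in Pu.1 KD that were not called (adjusted p 0.0734, 0.196 and 0.0581).

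The genes most like Ifitm3 were Arhgap45 (r = 0.962), Tmem86a (0.958), Carhsp1 (0.947), Rps6ka4, a stress-activated kinase (0.944), and Sema7a, a membrane-anchored semaphorin (0.942). Each of these 5 was called higher in Gata2 KD by limma, by 0.52 to 1.02. Arhgap45 (adjusted p 0.0428), Carhsp1 (0.0367) and Rps6ka4 (0.0443) were close to the threshold, and Tmem86a (0.00341) and Sema7a (0.02) less so. Tmem86a (0.73, adjusted p 0.0312) and Sema7a (0.83, adjusted p 0.0237) were also called higher in Pu.1 KD. Those most like Ifitm1 were Bmt2, Med28, Azi2, Zfp706 and Acbd3, with r of 0.941 to 0.958. Those most like Ifitm2 were Foxq1, Wnk1, Cox19, Ptms and Rusc1, with r of 0.817 to 0.906. None of the 10 genes named for Ifitm1 and Ifitm2 was called by limma in either knockdown, and 0 of them passed an unadjusted p of 0.05. They were picked for following Ifitm1 or Ifitm2 on these same arrays, so the absence of calls is not a separate result. The same holds for the calls of the genes most like Ifitm3.

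In the RefSeq gene order the members lie next to each other, as Ifitm2, Ifitm1, Ifitm3 and Ifitm6, with Ifitm5 on one side and B4galnt4 on the other. Of the 6 protein-coding genes on each side, 11 of 12 were tested, and 0 of 11 were called in either direction by limma in either knockdown, while 2 were higher at an unadjusted p under 0.05 in each. Over all genes 4.21% were called higher and 2.95% lower in Gata2 KD, and 1.45% and 2.16% in Pu.1 KD, so few calls among 11 genes are not a result about the neighbours. Their changes ran from -0.37 (Pkp3) to 0.47 (Rnh1) in Gata2 KD, with a median of 0.06, and from -0.16 (Pkp3) to 0.77 (B4galnt4, adjusted p 0.143) in Pu.1 KD, with a median of 0.17. Ifitm5, the bone-restricted member of the cluster, changed by -0.06 and 0.30 (adjusted p 0.986 and 0.817).

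**Figure D3:**
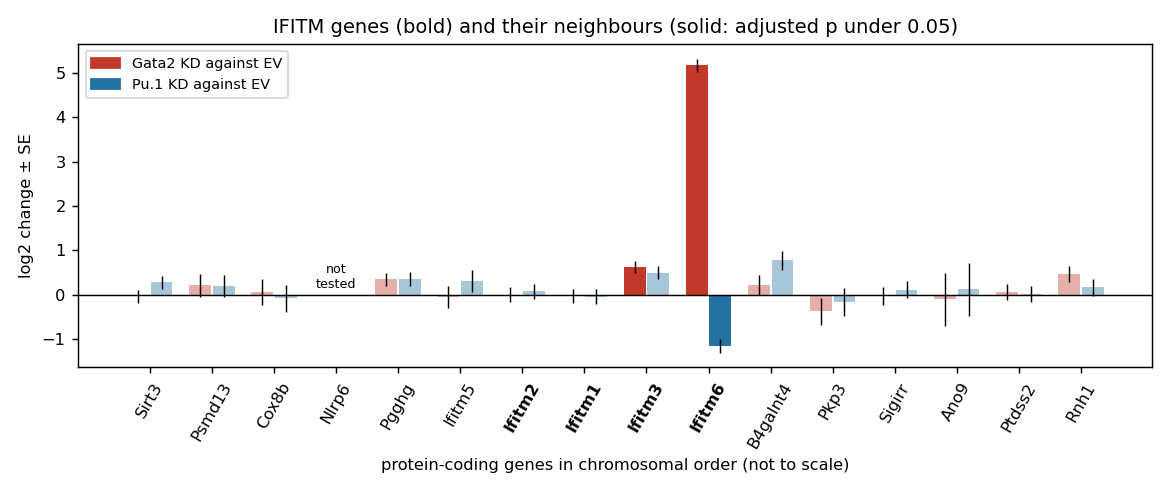
Log2 change with its SE (vertical axis) of the IFITM genes and their neighbours in the order of the RefSeq table (horizontal axis, not to scale), in Gata2 KD and Pu.1 KD against EV, with solid bars for called changes. Ifitm6 stands at 5.17 and -1.16, and its neighbour B4galnt4 at 0.23 and 0.77, neither called.

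Of 10 further relatives in the dispanin family, to which IFITM proteins belong, 4 were tested. None was called in Gata2 KD by limma, nor did any pass an unadjusted p of 0.05 (Tmem91 0.32, Prrt1 0.04, Ifitm5 -0.06, Trarg1 -0.26). In Pu.1 KD 1 of the 4 was called higher and 0 lower. The shares over all genes were 4.21% higher and 2.95% lower in Gata2 KD, and 1.45% and 2.16% in Pu.1 KD. Few calls among 4 genes are therefore not a result about the relatives. Tmem91 was higher in Pu.1 KD by 1.21 with an SE of 0.16 (adjusted p 0.00908), and leaving out Pu.1 KD replicate 1 ended this call (adjusted p 0.054). The Tmem91 call was lost in 3 of 21 alternatives (adjusted p up to 0.0621). Between the knockdowns its change was -0.89, the lower level being that of Gata2 KD (adjusted p 0.0098).

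The 10 partners and modifying enzymes of IFITM proteins were all tested. In each knockdown 0 were called higher and 1 lower against EV by limma. The shares over all genes were 4.21% higher and 2.95% lower in Gata2 KD, and 1.45% and 2.16% in Pu.1 KD. A single call among 10 genes is therefore not a result about the list. Cd81, a tetraspanin that associates with IFITM1, fell by 1.07 in Gata2 KD (SE 0.21, adjusted p 0.0214). This call was lost in 7 of 21 alternatives (adjusted p up to 0.132). Among them were the fits without EV replicate 2 (adjusted p 0.0754), EV replicate 3 (0.0619), Gata2 KD replicate 2 (0.083) or Gata2 KD replicate 3 (0.0804). Zdhhc20, a palmitoyltransferase that modifies IFITM3, fell by 0.70 in Pu.1 KD (SE 0.14, adjusted p 0.0467), and this call was lost in 13 of 21 alternatives, including each of the 9 that left out 1 array. The other 9 genes of this list in each knockdown against EV were not called. Among them were the ubiquitin ligase gene Nedd4 (-0.02 and -0.06), the methyltransferase gene Setd7 (-0.40 and 0.30) and the kinase gene Fyn (-0.70, adjusted p 0.0533, and -0.19). Between the knockdowns 1 was called higher in Gata2 KD and 1 lower, against 6.77% and 5.6% of all genes. These were Zdhhc20 (0.65, adjusted p 0.026) and Cd81 (-1.05, adjusted p 0.0144), with calls lost in 7 and 5 of 21 alternatives.

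The interferon pathway was followed from ligands to targets. Of 12 interferon genes, 8 were tested, and 0 were called by limma in either knockdown, nor passed an unadjusted p of 0.05, against 4.21% higher and 2.95% lower over all genes in Gata2 KD and 1.45% and 2.16% in Pu.1 KD, a background at which few calls among 8 genes would be seen. The changes were -0.19 to 0.24 in Gata2 KD and -0.29 to 0.26 in Pu.1 KD. Of the 8 genes 6 were well above background on all 9 arrays, and Ifna4 and Ifnk on 7. Ifnb1, Ifng, Ifna4 and Ifnk were dim, with log2 group means from -4.97 to -3.84, and the SE of Ifna4 was 0.66. A change of such dim genes could be missed. Ifnb1 changed by 0.24 (adjusted p 0.924) and -0.01 (adjusted p 1.00).

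Receptors and signal transducers were higher in Gata2 KD for part of the list. Of 20 tested, 10 were called higher and 1 lower, with a median change of 0.68, against 4.21% and 2.95% of all genes and a median of -0.09. The largest change was that of Irf8, a transcription factor of myeloid and dendritic cells, which rose by 4.38 (SE 0.13, adjusted p 3.47e-06). Irf7, which amplifies the interferon response, rose by 1.67 (adjusted p 0.00136). The interferon gamma receptor genes Ifngr2 and Ifngr1 rose by 1.44 (adjusted p 0.00144) and 1.12 (adjusted p 0.0034). Il10rb, a chain shared by the interferon lambda receptor, rose by 1.19 (adjusted p 0.0122), and the feedback inhibitor gene Socs3 by 1.03 (adjusted p 0.00955). Socs1, another feedback inhibitor, fell by 0.85 (adjusted p 0.0167). Its call was lost in 6 of 21 alternatives (adjusted p up to 0.15). Among them were the fits without EV replicate 2 (adjusted p 0.0695), Gata2 KD replicate 2 (0.0503) or Gata2 KD replicate 3 (0.0598). The number called higher was 5 without Gata2 KD replicate 2, where Il10rb (adjusted p 0.0623) and Socs3 (0.0537) were among those lost.

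In Pu.1 KD the same list had 0 genes called higher and 2 called lower by limma, against 1.45% and 2.16% of all genes, with a median of -0.02. At an unadjusted p under 0.05 there were 3 higher and 3 lower. The kinase gene Jak2 fell by 1.04 (adjusted p 0.0125) and Usp18, an inhibitor of type I interferon signaling, by 0.96 (adjusted p 0.0182). Jak2 was not called without EV replicate 2 or without any one of the Pu.1 KD arrays (adjusted p 0.0535 to 0.0652), and Usp18 was lost when EV replicate 2, EV replicate 3 or any one of the Pu.1 KD arrays was left out (adjusted p 0.0511 to 0.0744). Over all 21 alternatives Jak2 lost its call in 7 (adjusted p up to 0.0989) and Usp18 in 8 (up to 0.116). Between the knockdowns 11 were called higher in Gata2 KD and 1 lower, against 6.77% and 5.6% of all genes, with Irf8 differing by 4.80.

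Of 50 other interferon-stimulated genes, 40 were tested, and 21 of these were called higher and 0 called lower in Gata2 KD by limma, against 4.21% and 2.95% of all genes, with 26 higher and 1 lower at an unadjusted p under 0.05. The list overlaps that of the signal transducers, with Irf7 among the genes in both. The median change was 0.89 and 35 of 40 changes were positive. The 2'-5' oligoadenylate synthetase gene Oas2 rose by 4.54 (SE 0.36, adjusted p 0.000202). Its relative Oasl2, which was not well above background on any EV array, was at least 41.5-fold higher on the processed intensities (adjusted p 0.000114). With normexp background correction its log2 change was 2.57, which lies below that bound. The bound therefore holds for the processed intensities only, and the size of the rise depends on the background correction. Ifit3, an RNA-binding antiviral effector, rose by 4.35 (adjusted p 0.000752) and Zbp1, a nucleic acid sensor, by 3.35 (adjusted p 4.49e-05). The guanylate-binding protein gene Gbp3 rose by 2.74 (adjusted p 0.000416) and Rsad2, which encodes viperin, by 2.73 (adjusted p 0.00115). With normexp the rises were 2.51 for Oas2, 2.15 for Ifit3, 2.35 for Zbp1, 1.77 for Gbp3 and 1.71 for Rsad2, all still called. The number called higher was between 12 and 24 over 21 alternatives, the lowest with only the 2 groups compared in the fit.

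In Pu.1 KD 4 of the 40 were called higher and 0 lower by limma, against 1.45% and 2.16% of all genes, with a median of 0.12, and 12 were higher and 3 lower at an unadjusted p under 0.05. They were Zbp1 (0.96, adjusted p 0.0488), the exonuclease gene Isg20 (0.93, adjusted p 0.0192), the immunoproteasome gene Psmb9 (0.69, adjusted p 0.0443) and the GTPase gene Igtp (0.63, adjusted p 0.0253). This number was unstable. It was 7 with quantile normalization, with the trend and robust settings and on the deposited log2 values, and 1 or 2 genes were called lower in 6 alternatives. It fell to 0 without EV replicate 1, Pu.1 KD replicate 1 or Pu.1 KD replicate 2, to 1 without EV replicate 2, Gata2 KD replicate 2, Gata2 KD replicate 3 or Pu.1 KD replicate 3, and to 2 without Gata2 KD replicate 1. Between the knockdowns 18 were called higher in Gata2 KD and 1 lower, against 6.77% and 5.6% of all genes. The gene called lower was Isg20, with a change of -1.29 (adjusted p 0.000967).

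**Figure D4:**
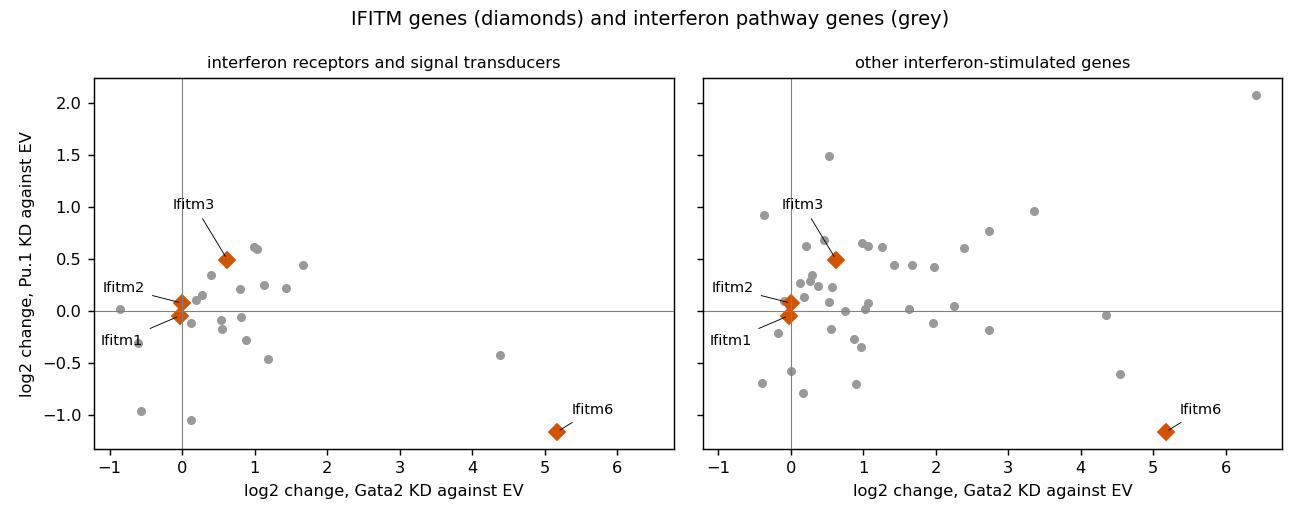
Log2 change in Gata2 KD (horizontal axis) and Pu.1 KD (vertical axis) against EV of tested genes, with 1 grey point per receptor or transducer gene (left) or other interferon-stimulated gene (right) and diamonds for the IFITM genes. The axes share the EV arrays. Ifitm6 sits at 5.17 and -1.16, while Ifitm1 and Ifitm2 sit near the origin.

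The members differed in how far their levels followed those of the other interferon-stimulated genes over the 9 arrays. The median correlation with the 40 genes tested was 0.81 for Ifitm6, 0.57 for Ifitm3, 0.04 for Ifitm1 and -0.07 for Ifitm2, where the medians over all named genes lay between -0.16 and -0.07. Group means were not removed here, so a member that differs between groups correlates with any gene that differs likewise. The neutrophil gene Lcn2, for example, had a correlation of 0.998 with Ifitm6. The medians are descriptions over arrays that share groups and slides, and do not tell interferon genes from other genes raised in Gata2 KD.

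Markers of other cell types moved alongside Ifitm6. Over all genes 4.21% were called higher and 2.95% lower in Gata2 KD, and 1.45% and 2.16% in Pu.1 KD. Of 7 monocyte and macrophage markers tested, 6 were called higher in Gata2 KD, and 2 lower in Pu.1 KD, with a summed level of 4.51 to 5.24 in EV, 46.5 to 51.9 in Gata2 KD and 2.46 to 2.91 in Pu.1 KD. The dendritic cell list had 3 of 7 called higher in Gata2 KD and 3 lower in Pu.1 KD, with sums of 3.90 to 4.30, 47.8 to 55.9 and 2.87 to 3.27. The called genes were in both cases those of antigen presentation by MHC class II, Cd74, H2-Ab1 and H2-Aa, while Xcr1, Flt3, Itgax and Siglech changed by 0.22, 0.20, 0.08 and -0.22 in Gata2 KD with no call. Mast cell and basophil markers ran the other way in Gata2 KD, with 6 of 8 called lower, and 2 of 8 were called lower and 1 higher in Pu.1 KD, with sums of 125 to 143 in EV, 24.0 to 26.3 in Gata2 KD and 89.2 to 97.3 in Pu.1 KD. Of 8 erythroid markers 2 were called lower in Gata2 KD and 2 higher in Pu.1 KD, and of 6 megakaryocyte markers 1 was called higher in Gata2 KD and 3 in Pu.1 KD. Of 8 progenitor markers 2 were called higher and 1 lower in Gata2 KD, and 1 higher and 1 lower in Pu.1 KD. Cd34 changed by 2.17 and -0.92 and Kit by 0.75 and 1.41, all called, and the marker called lower in Gata2 KD was Gata2 itself. Of 6 lymphoid markers 0 were called in Gata2 KD and 1, Cd79b, was called lower in Pu.1 KD (-1.65). All tested members of the neutrophil, monocyte and macrophage, dendritic, mast cell and basophil lists, and all 8 progenitor markers, were well above background on all 9 arrays. The part of any of these cell types in the changes of Ifitm6, Ifitm3 or the interferon genes was not tested.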

How the data were processed

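For each of the 9 arrays the authors deposited the intensity output of Agilent Feature Extraction 10.1.1.1, background-corrected within the array and not scaled between arrays, plus 1 table of log2 values whose scale and centring are not fully stated and which follows the log2 median signal without background correction (Pearson r of at least 0.997 per array). Groups and replicate numbers came from the sample titles.

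Control spots were removed, outlier-flagged spots (47 to 96 per array) set to missing and spots of a probe averaged. Log2 processed intensity minus the array's 75th percentile was fitted with limma 3.58.1 in R 4.3.3 (group means over 9 arrays, eBayes, Benjamini-Hochberg over 36585 probes, threshold 0.05, two-sided). A probe was tested if at least 3 arrays read it well above background and every group had at least 2 values. Each gene is given by its brightest tested probe. Accessions were matched to RefSeq symbols (GRCm38.p6 table). The array design is annotated to another build, so only promoter windows carry coordinates. Where no array of the dimmer group read a gene well above background, the lowest signal well above background stands in for it. The fold is then a lower bound for the processed intensities only. The fit was tested on simulated data.

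The members and lists were chosen with earlier results of these data known. Lists are described by counts and medians, naming called members up to 6 per direction, with no set test, and for each member the 5 most correlated named genes. Alternatives were the replicate block, the slide as a block, normexp, quantile and median scaling, 2 filters on dim probes, flagged spots kept, the deposited log2 values, eBayes with trend and robust settings, the mean of a gene's probes, only the groups compared, and each array left out. Scaling over spots, and the alternatives for list genes, were added after seeing the data. Normexp used the spot median and local background median signals. The number of arrays limits the precision.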

Additional observations from a re-analysis of the deposited data

How the results depend on the processing

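Ifitm6 stayed called and in the same direction under 22 of 22 alternatives in Gata2 KD (4.66 to 5.24) and in Gata2 KD against Pu.1 KD (5.38 to 6.41), and under 21 of 22 in Pu.1 KD (-1.24 to -0.71). The exception was the fit of only the 2 groups compared (-1.16, adjusted p 0.051), which left 0 members called in Pu.1 KD. The rise of Ifitm3 in Gata2 KD lost its call with scaling to the median (0.67, adjusted p 0.243), no filter on dim probes (0.62, 0.0609), the 75th percentile over spots (0.60, 0.0538) and only the 2 groups compared (0.62, 0.121), and with each array left out (0.58 to 0.71), so that 1 member was called in each of these. In Pu.1 KD 2 members were called with the trend and robust settings, where Ifitm3 changed by 0.50, and on the deposited log2 values, where it changed by 0.51. The cause was not tested.

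Replicate numbers did not pair the arrays, since the deviations of same-numbered arrays correlated between -0.55 and 0.65. With the replicate block Ifitm3 in Gata2 KD changed by 0.62 without a call (adjusted p 0.144), leaving 1 member called, and the probes called fell from 1902 to 1172 in Gata2 KD and from 986 to 234 in Pu.1 KD. Arrays of the same slide deviated together in 8 of 9 pairs (0.26 to 0.72, the other -0.04). With the slide as a block the probes called numbered 2886 and 1875, the members called did not change, and the SE of the Ifitm1 and Ifitm2 changes was 0.12 and 0.13 in place of 0.16 and 0.17.

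Changes of Ifitm1 and Ifitm2 were never called, and some turned sign near 0. Ifitm1 in Gata2 KD was 0.0179 with scaling to the median and ran from -0.15 to 0.0944 with arrays left out. Ifitm1 between the knockdowns was -0.0551 with quantile normalization, -0.0643 on the deposited values, -0.00333 with the percentile over spots, and -0.11 to 0.14 with arrays left out. Ifitm2 in Gata2 KD was -0.0176 with the percentile over spots and -0.0776 to 0.0734 with arrays left out. With arrays left out Ifitm1 in Pu.1 KD ran from -0.14 to 0.0138, and Ifitm2 from -0.0572 to 0.161 in Pu.1 KD and from -0.157 to 0.0613 between the knockdowns. Among 74 changes of other pathway genes, 225 of 1546 alternative values lost the call and 0 reversed. The receptors and transducers called higher in Gata2 KD were 5 to 11 over 21 alternatives and the other interferon-stimulated genes 12 to 24 (in Pu.1 KD 0 to 7). Oasl2 changed by 2.57 with normexp and stayed called. With 3 arrays per group, small changes of Ifitm1 and Ifitm2 could be missed.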
